A study of Mus musculus with 8 samples.

Results

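The genes of glucose uptake, glycolysis, lactate handling, the pentose phosphate pathway and the citrate cycle were followed in helper T cells that lacked T-bet, STAT6 or both. The members were 42 gene symbols fixed by pathway, the hypoxia-inducible regulator Hif1a among them, and 41 had a line of their own among the 11841 symbols of the deposited table. The remaining one, Pkm, stood under its older name Pkm2 and is given beside the others without being counted. By pathway the 41 were 4 transporters, 14 glycolytic genes, 4 genes of the lactate and pyruvate branch, 6 pentose phosphate genes, 12 citrate cycle genes and Hif1a. RNA came from CD44+ CD4+ T cells, helper cells that have met antigen, taken from skin-draining lymph nodes of BALB/cAJcl mice and exposed to PMA and ionomycin for 2 h, a stimulus that bypasses the T cell receptor. The 4 genotypes were T-bet-/- STAT6-/- (double-null), STAT6-/- (STAT6-null), T-bet-/- (T-bet-null) and wild type (WT), with 2 libraries each and 8 in all. The labels name no conditional allele or transgene, and give neither age, sex, batch nor the number of mice behind a library.

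A T cell that becomes activated takes up glucose through GLUT transporters, splits it to pyruvate in glycolysis and exports much of it as lactate, while part of the carbon enters the pentose phosphate pathway for NADPH and ribose, or the citrate cycle in mitochondria. Many of these steps are carried by isozymes from separate genes that differ in affinity, regulation or cell compartment. HIF-1α, the product of Hif1a, raises transcription of glycolytic genes, and T-bet and STAT6 are the factors that direct helper cells to the Th1 fate and transmit IL-4 signals.

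Values are FPKM, fragments scaled to transcript length and to the depth of the library, so that levels of different genes can be compared. Changes are log2 differences of FPKM + 1 from limma, given with the standard error, and a gene was called at a Benjamini-Hochberg adjusted p under 0.05 over all 10281 genes tested. Tbx21, which encodes T-bet, stood at 2.49 and 2.09 FPKM in double-null, 102 and 92.1 in STAT6-null, 1.44 and 1.54 in T-bet-null and 30.8 and 31.6 in WT libraries. Stat6 stood at 29.6 and 26.9 FPKM in double-null, 31.6 and 29.0 in STAT6-null, 88.8 and 89.8 in T-bet-null and 89.9 and 90.9 in WT libraries. Each targeted transcript was lowest where the label says it was lost, and neither was absent there. Of 9 T cell genes, all were present, with a summed level of 2583 and 2761 FPKM in double-null, 2977 and 2963 in STAT6-null, 2549.7 and 2510.1 in T-bet-null and 3209.5 and 3148 in WT libraries. Cd4 stood at 88.1 and 110.1 FPKM in double-null, 127 and 127 in STAT6-null, 122 and 114 in T-bet-null and 195 and 208 in WT libraries. Cd44 was higher in all mutants, at 389 and 362 FPKM in double-null, 355 and 357 in STAT6-null and 436 and 442 in T-bet-null libraries. In WT it stood at 251 and 282 FPKM. Against WT 1 of 9 was called higher and 6 lower in double-null, 2 and 5 in STAT6-null and 1 and 8 in T-bet-null cells. Over all genes tested the shares were 36.3% and 36.7%, 34.9% and 36.1%, and 34.2% and 36.3%. The WT libraries stood apart from all mutants: the median absolute log2 change over all tested genes was 0.41 in double-null, 0.38 in STAT6-null and 0.37 in T-bet-null cells against WT, and 0.13 to 0.16 between mutants. Red cell markers moved with that difference. Of 10 on the list, 2 were in the table (Hba-a1 and Beta-s), with a summed level of 2.63 and 4.15 FPKM in double-null, 6.53 and 2.65 in STAT6-null, 7.36 and 7.48 in T-bet-null and 442 and 224 in WT libraries. Of 10 myeloid markers 6 were present, with sums of 109 and 132 FPKM in double-null, 139 and 138 in STAT6-null, 104 and 98.5 in T-bet-null and 188 and 182 in WT libraries. The higher WT sum came from Ctss, at 105 and 110 FPKM in WT and 43.1 to 59.3 in mutant libraries. Lyz2 was highest in STAT6-null libraries (13.1 and 13.6 FPKM, against 12.2 and 7.85 in WT). Cst3 stood at 58.3 and 70.4 FPKM in double-null, 66.1 and 63.9 in STAT6-null and 66.2 and 61.4 in WT libraries. In T-bet-null libraries Cst3 was lower, at 48.6 and 44.5 FPKM. Cd14, Fcer1g and Tyrobp never exceeded 2.26 FPKM. The 6 B cell markers present, of 8, summed to between 2.15 and 8.09 FPKM in every library. Of 2 CD8 T cell markers 1 was present, Cd8b1, at 5.60 and 4.90 FPKM in WT and 3.02 to 4.46 in mutant libraries. Of 7 markers of stroma and endothelium 2 were present. Pecam1 stood at 25.8 and 23.9 FPKM in WT and 7.57 to 10.3 in mutant libraries. Col1a1 was lowest in WT and never exceeded 0.993 FPKM. The part of these cells in the results was not tested, and in bulk RNA fewer cells of a type and less RNA per cell cannot be told apart.

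Against WT, genes of glucose metabolism were called about as often as genes at large, and isozymes of 1 step went opposite ways in several cases. Of 40 tested members, 14 were higher and 17 lower in double-null cells, 11 higher and 20 lower in STAT6-null cells and 13 higher and 19 lower in T-bet-null cells. Over all genes tested the shares were 36.3% higher and 36.7% lower in double-null, 34.9% and 36.1% in STAT6-null, and 34.2% and 36.3% in T-bet-null cells. The members' shares were 35% and 42.5%, 27.5% and 50%, and 32.5% and 47.5% in that order. In each mutant the higher share was thus below, and the lower share above, that of all genes, a difference that was not tested. The median member change was -0.02 in double-null, -0.17 in STAT6-null and -0.19 in T-bet-null cells, beside -0.00, -0.01 and -0.02 over all genes tested. The 3 comparisons share their WT libraries. Aldoc passed the filter, at least 1 FPKM in at least 2 libraries, only through WT, so its lower calls were favoured by that filter. Pdk1, a kinase that restrains pyruvate dehydrogenase, had too low a level to be tested, at 0.269 and 0.396 FPKM in double-null, 0.303 and 0.374 in STAT6-null, 0.538 and 0.403 in T-bet-null and 0.998 and 0.995 in WT libraries.

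**Figure D1:**
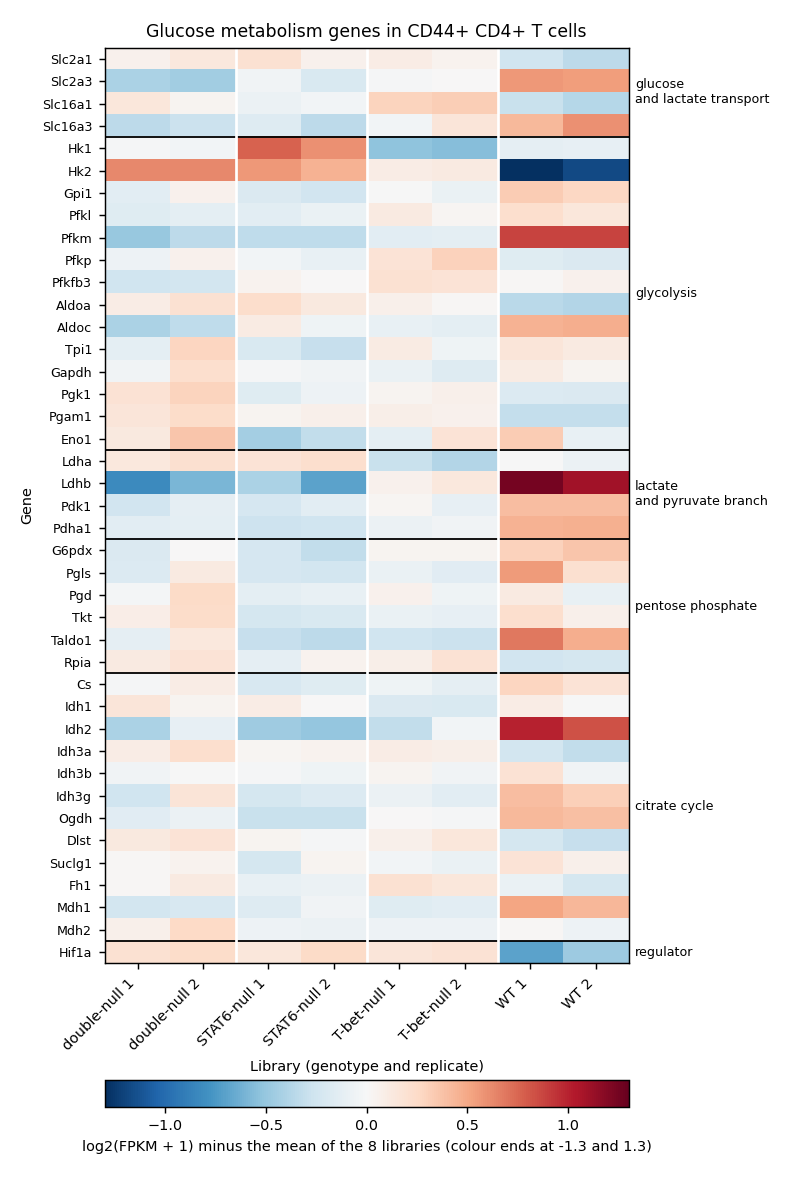
Level of the 41 members in each of the 8 libraries, as log2(FPKM + 1) minus the gene's mean over the libraries, with rows grouped by pathway and columns by genotype. Hk2 and Hif1a were lowest and Ldhb, Idh2 and Pfkm highest in the WT libraries, and Hk1 was highest in the STAT6-null libraries and lowest in the T-bet-null ones.

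Among the transporters, the pairs that carry the same cargo moved apart. Slc2a1, which encodes GLUT1, the main glucose transporter of activated T cells, stood at 43.1 and 45.4 FPKM in double-null, 47.4 and 43.1 in STAT6-null, 44.3 and 42.7 in T-bet-null and 34.4 and 32.5 in WT libraries. All mutant libraries lay above both WT libraries, by 0.39 ± 0.06 (log2 ± SE, adjusted p = 0.000447) in double-null, 0.42 in STAT6-null and 0.37 in T-bet-null cells. Slc2a3, which encodes the high-affinity transporter GLUT3, stood at 5.21 and 5.03 FPKM in double-null, 6.97 and 6.19 in STAT6-null, 7.18 and 7.30 in T-bet-null and 11.2 and 10.98 in WT libraries. It was lower in every mutant library than in WT, with log2 changes of -0.98 in double-null, -0.68 in STAT6-null and -0.55 in T-bet-null cells. The genotypes did not overlap for Slc2a3, and double-null cells were below T-bet-null cells (-0.43 ± 0.07, adjusted p = 0.00239). For lactate, Slc16a1, which encodes the carrier MCT1, stood at 35.3 and 32.7 FPKM in double-null, 30.1 and 31.0 in STAT6-null, 39.2 and 39.99 in T-bet-null and 26.0 and 24.4 in WT libraries, and rose by 0.42, 0.27 and 0.63 in double-null, STAT6-null and T-bet-null cells. T-bet-null libraries were the highest, and STAT6-null cells were lower than T-bet-null cells by a log2 change of -0.36 ± 0.06 (adjusted p = 0.00244). Slc16a3, which encodes MCT4, the lactate exporter of glycolytic cells, was low and fell in all mutants, at 2.04 and 2.17 FPKM in double-null, 2.43 and 2.04 in STAT6-null, 2.76 and 3.28 in T-bet-null and 4.16 and 4.81 in WT libraries (log2 changes -0.82, -0.76 and -0.45 in double-null, STAT6-null and T-bet-null cells).

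The isozymes of hexokinase, the entry enzyme, differed in which genotype they marked. Hk2, the inducible hexokinase of growing cells, stood at 17.4 and 17.4 FPKM in double-null, 16.6 and 15.3 in STAT6-null, 11.8 and 11.9 in T-bet-null and 3.80 and 4.29 in WT libraries. No mutant library overlapped with WT, and the rise was 1.87 ± 0.07 in double-null (adjusted p = 8.75e-08), 1.75 ± 0.07 in STAT6-null and 1.35 ± 0.07 in T-bet-null cells. Hk1, the constitutive hexokinase, stood at 27.0 and 26.5 FPKM in double-null, 46.9 and 41.6 in STAT6-null, 18.7 and 18.3 in T-bet-null and 25 and 25.2 in WT libraries. It was highest where STAT6 alone was lost and lowest where T-bet alone was lost, while double-null libraries lay just above WT (log2 change 0.09 ± 0.06, adjusted p = 0.24, 95% interval -0.06 to 0.23). STAT6-null cells exceeded T-bet-null cells by 1.21 ± 0.06 (adjusted p = 3.95e-06). T-bet loss lowered Hk1 with STAT6 present (-0.42) and without it (-0.70), and STAT6 loss raised it with T-bet present (0.79) and without it (0.51). The interaction of the losses was -0.28 ± 0.09 (adjusted p = 0.0259), a call that was lost when any of 5 libraries was left out or after quantile normalization (adjusted p 0.0544 to 0.0916).

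**Figure D2:**
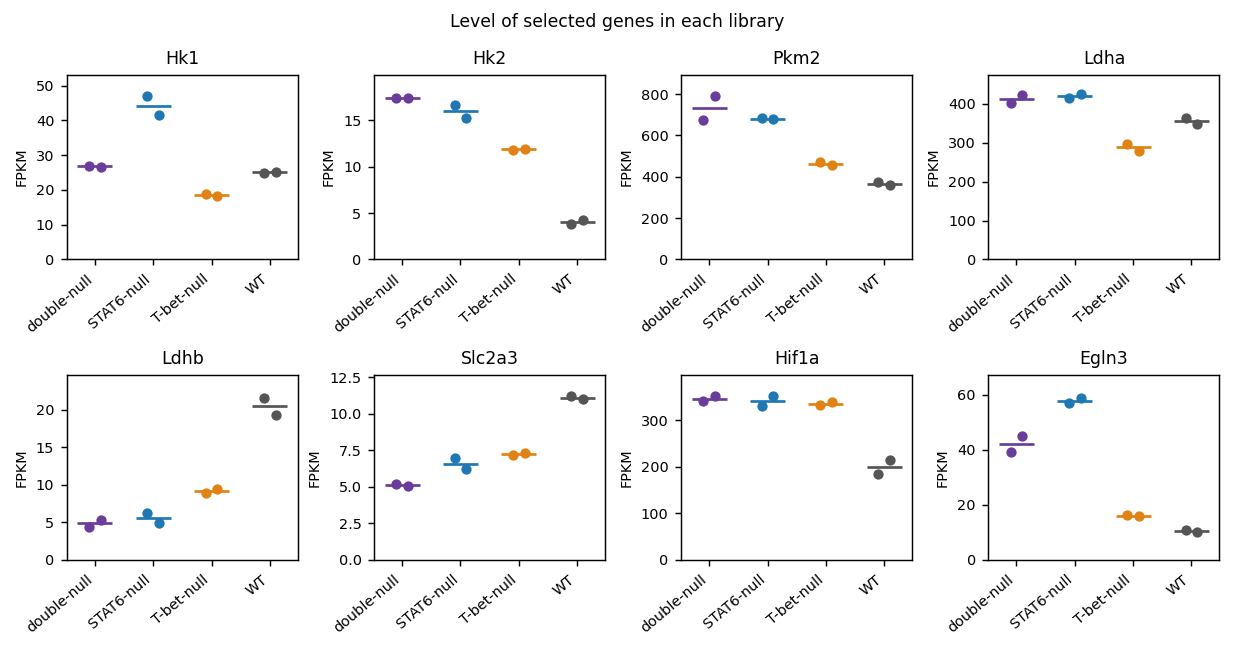
FPKM in each library (points) with the mean of the 2 libraries of a genotype (line) for Hk1, Hk2, Pkm2, Ldha, Ldhb, Slc2a3, Hif1a and Egln3, each axis starting at 0. Hk2 and Hif1a were higher in every mutant library than in WT, Hk1 and Egln3 were highest in STAT6-null libraries, and Ldhb fell furthest where STAT6 was lost.

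The promoters of both hexokinase genes are shown because Hk2 had the highest rise against WT among the members and Hk1 separated the single mutants. They are RefSeq sequences of GRCm38.p6, the assembly behind mm10, from 250 bases before to 50 after a transcription start, written 5′ to 3′ on the gene's strand. Capitals mark ACGTG or GCGTG, the core letters of the hypoxia response element, on either strand, so that CACGT and CACGC are their reverse complements. Hk2 lies on the minus strand at chr6:82774405-82774704 and holds 2 such matches. The Hk1 start shown, on the minus strand at chr10:62340372-62340671, holds 5, and the other listed Hk1 start at chr10:62379859-62380158 holds 0.
Hk2: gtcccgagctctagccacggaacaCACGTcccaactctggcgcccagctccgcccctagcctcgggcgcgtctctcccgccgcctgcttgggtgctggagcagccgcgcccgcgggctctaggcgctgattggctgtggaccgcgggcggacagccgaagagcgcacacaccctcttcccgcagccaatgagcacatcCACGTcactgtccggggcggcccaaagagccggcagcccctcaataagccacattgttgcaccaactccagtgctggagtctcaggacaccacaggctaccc
Hk1: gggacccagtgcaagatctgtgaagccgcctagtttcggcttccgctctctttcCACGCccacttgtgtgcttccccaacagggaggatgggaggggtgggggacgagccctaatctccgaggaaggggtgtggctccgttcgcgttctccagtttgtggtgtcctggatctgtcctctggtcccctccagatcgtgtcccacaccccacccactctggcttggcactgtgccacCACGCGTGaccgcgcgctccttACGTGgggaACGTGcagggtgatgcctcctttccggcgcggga

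The same search was made over all members with a listed promoter, 40 of 42. ACGTG or GCGTG stood in 49 of their 60 promoters (81.7%), against 14380 of all 32851 promoters of this length (43.8%). Counted by gene, 35 of 40 members (87.5%) had a match, against 5702 of 8407 genes of the deposited table with a listed promoter (67.8%). The E-box CACGTG, which overlaps ACGTG, stood in 8 of the 60 member promoters (13.3%) and in 7.15% of all promoters. By gene it stood in 6 of 40 members (15%), against 1026 of 8407 genes of the deposited table (12.2%). TTC and GAA with any 4 bases between them, the letters and spacing that STAT6 prefers, stood in 6 of the 60 (10%) and in 6.95% of all, with 1 match each for Ldha, Gpi1, Fh1, Idh3b, Pgd and Hif1a. By gene they stood in 6 of 40 members (15%), against 557 of 8407 genes of the deposited table (6.6%), a difference that was not tested. AGGTGTGA or AGGTGTTA, written here for the site that T-box factors such as T-bet bind, stood in 0 of the 60 and in 1.69% of all promoters. By gene that is 0 of 40 members, against 112 of 8407 genes of the deposited table (1.33%). Such matches describe letters in these windows and not binding.

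Phosphofructokinase, the committed step, is encoded by Pfkl, Pfkm and Pfkp, named after liver, muscle and platelets. Pfkp carried most of the summed level, at 43.4 and 47.4 FPKM in double-null, 44.2 and 42.4 in STAT6-null, 51.7 and 56.1 in T-bet-null and 40.7 and 39.9 in WT libraries. It rose in T-bet-null cells (0.41 ± 0.06, adjusted p = 0.000398), while the changes in double-null (0.17) and STAT6-null cells (0.10) were small. The double-null call was lost under 9 of 19 alternatives, with an adjusted p up to 0.346. Pfkm stood at 0.670 and 0.862 FPKM in double-null, 0.872 and 0.870 in STAT6-null, 1.14 and 1.16 in T-bet-null and 3.34 and 3.31 in WT libraries. Its WT libraries lay above all mutant libraries without overlap, and it fell, with log2 changes of -1.29 in double-null, -1.21 in STAT6-null and -1.01 in T-bet-null cells. Pfkl stood at 7.17 and 7.38 FPKM in double-null, 7.34 and 7.59 in STAT6-null, 8.92 and 8.29 in T-bet-null and 9.66 and 9.16 in WT libraries, with falls in double-null (-0.33) and STAT6-null cells (-0.30) and no call in T-bet-null cells (-0.12). Pfkfb3, which makes the activator of phosphofructokinase, stood at 14.1 and 14.3 FPKM in double-null, 17.6 and 17.1 in STAT6-null, 19.8 and 19.4 in T-bet-null and 17.2 and 17.8 in WT libraries. It fell in double-null cells against WT (-0.28) and against T-bet-null cells (-0.44 ± 0.05, adjusted p = 0.000618). Its rise in T-bet-null cells against WT (0.15) was lost under 4 of 19 alternatives, with an adjusted p up to 0.349.

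For aldolase the abundant gene rose in all mutants. Aldoa stood at 419 and 451 FPKM in double-null, 460.1 and 427 in STAT6-null, 410.1 and 396 in T-bet-null and 307 and 302 in WT libraries, and rose by 0.52, 0.54 and 0.41 in double-null, STAT6-null and T-bet-null cells. Aldoc, named for brain, stood at 0.338 and 0.417 FPKM in double-null, 0.923 and 0.715 in STAT6-null, 0.675 and 0.631 in T-bet-null and 1.44 and 1.47 in WT libraries, with log2 changes of -0.84, -0.44 and -0.57 in the same order. It lay under 1 FPKM in every mutant library and was tested only because both WT libraries exceeded that level, so these lower values are given as a description. Double-null libraries were the lowest for Aldoc and did not overlap with any other genotype. Its fall in double-null against STAT6-null cells (-0.40 ± 0.09, adjusted p = 0.0144) was lost without STAT6-null replicate 1 (0.102) or double-null replicate 1 (0.0561).

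The other steps of glycolysis showed smaller changes in both directions. Gpi1, the isomerase after hexokinase, lay between 67.7 and 101 FPKM over the 8 libraries and fell in all mutants (-0.34 in double-null, -0.51 in STAT6-null and -0.34 in T-bet-null cells). Pgam1, the phosphoglycerate mutase, lay between 147 and 215 FPKM and rose in all of them (0.51, 0.36 and 0.37 in the same order). Pgk1, an ATP-producing kinase, stood at 155 and 166 FPKM in double-null, 121 and 129.9 in STAT6-null, 139 and 142 in T-bet-null and 120.0 and 119 in WT libraries. It rose in double-null (0.42) and T-bet-null cells (0.23), and double-null exceeded STAT6-null cells by 0.35 ± 0.06 (adjusted p = 0.0038). Gapdh, often used as a reference gene, was not called in any of the 7 comparisons. Its levels were 660.2 and 795 FPKM in double-null, 675 and 664 in STAT6-null, 642 and 608 in T-bet-null and 738 and 702 in WT libraries. The triose isomerase gene Tpi1 (-0.39, adjusted p = 0.0157) and the enolase gene Eno1 (-0.50, adjusted p = 0.0143) were lower in STAT6-null cells. Both calls were lost without WT replicate 1 (0.0701 and 0.116), that of Tpi1 also without STAT6-null replicate 2 (0.0872) and that of Eno1 without STAT6-null replicate 1 (0.0772). Eno1 stood at 23.4 and 27.8 FPKM in double-null, 15.6 and 16.9 in STAT6-null, 19.5 and 24.3 in T-bet-null and 27.2 and 19.96 in WT libraries, and double-null exceeded STAT6-null cells by 0.62 ± 0.15 (adjusted p = 0.0199, lost without either STAT6-null library or double-null replicate 2, up to 0.119). Several of these genes have processed pseudogenes, and Eno1 has an intronless copy, Eno1b, so shared reads could be divided among loci and their levels are uncertain.

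The last step, pyruvate kinase, had its highest levels in the libraries without STAT6. The line Pkm2 covers the gene Pkm, whose splice forms PKM1 and PKM2 it does not separate. It stood at 677 and 792 FPKM in double-null, 685 and 677 in STAT6-null, 469 and 455 in T-bet-null and 375 and 359 in WT libraries. All mutant libraries were above WT, and the 4 libraries without STAT6 were above both T-bet-null libraries. The log2 change was 0.99 ± 0.08 in double-null, 0.89 ± 0.08 in STAT6-null and 0.33 ± 0.08 in T-bet-null cells against WT, and 0.66 ± 0.08 in double-null against T-bet-null cells (adjusted p = 0.000437). Between double-null and STAT6-null cells the difference was 0.10 (adjusted p = 0.377, 95% interval -0.07 to 0.28).

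Lactate dehydrogenase also separated its isozymes. Ldha, whose subunit favours the making of lactate, stood at 403 and 422 FPKM in double-null, 414 and 425 in STAT6-null, 298 and 279 in T-bet-null and 364 and 347 in WT libraries. T-bet-null libraries were the lowest and those without STAT6 the highest, with changes against WT of 0.21 in double-null, 0.24 in STAT6-null and -0.30 in T-bet-null cells. Double-null exceeded T-bet-null cells by 0.51 ± 0.06 (adjusted p = 0.00043). Ldhb, whose subunit favours the return of lactate to pyruvate, stood at 4.36 and 5.29 FPKM in double-null, 6.16 and 4.85 in STAT6-null, 8.89 and 9.45 in T-bet-null and 21.5 and 19.3 in WT libraries. WT libraries were the highest, T-bet-null libraries lay between, and those without STAT6 were the lowest, with the double-null and STAT6-null libraries overlapping. The log2 change was -1.88 ± 0.11 in double-null (adjusted p = 8.87e-07), -1.73 ± 0.11 in STAT6-null and -1.08 ± 0.11 in T-bet-null cells, and -0.81 ± 0.11 in double-null against T-bet-null cells (adjusted p = 0.00113). Pdha1, the subunit of pyruvate dehydrogenase that brings pyruvate into the citrate cycle, fell in all mutants (-0.59, -0.72 and -0.52 in double-null, STAT6-null and T-bet-null cells), to 32.9 and 33.0, 29.9 and 30.1 and 34.2 and 35.0 FPKM in that order, against 49.8 and 50.02 FPKM in WT.

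The promoters of the lactate dehydrogenase pair are shown with the same marking, since both changed in every mutant and Ldha is a known target of HIF-1α. Ldha lies on the plus strand, and its start at chr7:46845554-46845853 held 7 matches of ACGTG or GCGTG, of which 4 are the strand-symmetric letters CACGTG read on both strands at 2 places. It also held 1 match of TTC and GAA with 4 bases between them, the first capitals of the line. The other listed Ldha start, at chr7:46846832-46847131, held 2 matches of ACGTG or GCGTG and 0 of the STAT6 spacing. Ldhb, on the minus strand at chr6:142507908-142508207, held 1 match.
Ldha: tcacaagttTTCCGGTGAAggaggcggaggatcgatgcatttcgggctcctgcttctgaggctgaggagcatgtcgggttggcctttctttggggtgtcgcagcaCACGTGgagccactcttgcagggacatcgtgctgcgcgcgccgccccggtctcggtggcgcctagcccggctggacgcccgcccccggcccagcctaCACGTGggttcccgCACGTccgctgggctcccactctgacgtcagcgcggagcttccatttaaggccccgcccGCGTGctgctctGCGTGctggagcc
Ldhb: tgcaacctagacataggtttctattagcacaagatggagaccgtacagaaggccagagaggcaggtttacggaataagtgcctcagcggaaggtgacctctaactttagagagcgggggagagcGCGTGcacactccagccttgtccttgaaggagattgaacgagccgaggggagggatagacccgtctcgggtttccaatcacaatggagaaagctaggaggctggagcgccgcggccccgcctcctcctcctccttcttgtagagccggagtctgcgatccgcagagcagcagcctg

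Within a library, the share of 1 isozyme in the summed FPKM of its set does not depend on how libraries are scaled to each other. Hk2 made up 39.2 and 39.6% of Hk1 and Hk2 in double-null, 26.2 and 26.9% in STAT6-null and 38.7 and 39.5% in T-bet-null libraries, against 13.2 and 14.5% in WT. The double-null and T-bet-null libraries overlapped for this share, and STAT6-null libraries, with their high Hk1, lay between them and WT. Ldhb made up 1.07 and 1.24% of the lactate dehydrogenase pair in double-null, 1.47 and 1.13% in STAT6-null and 2.90 and 3.27% in T-bet-null libraries, against 5.59 and 5.28% in WT. Slc2a3 made up 10.8 and 9.98% of the 2 glucose transporters in double-null, 12.8 and 12.6% in STAT6-null and 13.95 and 14.6% in T-bet-null libraries, against 24.5 and 25.2% in WT. For the lactate carriers the share of Slc16a3 was 5.45 and 6.23%, 7.47 and 6.18%, 6.58 and 7.59% and 13.8 and 16.4% in that order. Pfkm made up 1.31 and 1.55% of the 3 phosphofructokinase genes in double-null libraries, against 6.21 and 6.33% in WT, and Pfkp made up 84.7 and 85.2% in double-null and 75.8 and 76.2% in WT. Aldoc never exceeded 0.486% of the aldolase pair, and was at 0.0805 and 0.0924% in double-null libraries, against 0.469 and 0.486% in WT. For all 8 shares, taken from 7 sets, the 6 mutant libraries lay on 1 side of the 2 WT libraries. Each exact permutation test of the 6 mutant libraries against WT, two-sided over 28 splits, gave p = 0.0714, also after Benjamini-Hochberg adjustment over the 8 shares. That is the smallest p this design allows, and it joins 3 genotypes into 1 group.

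**Figure D3:**
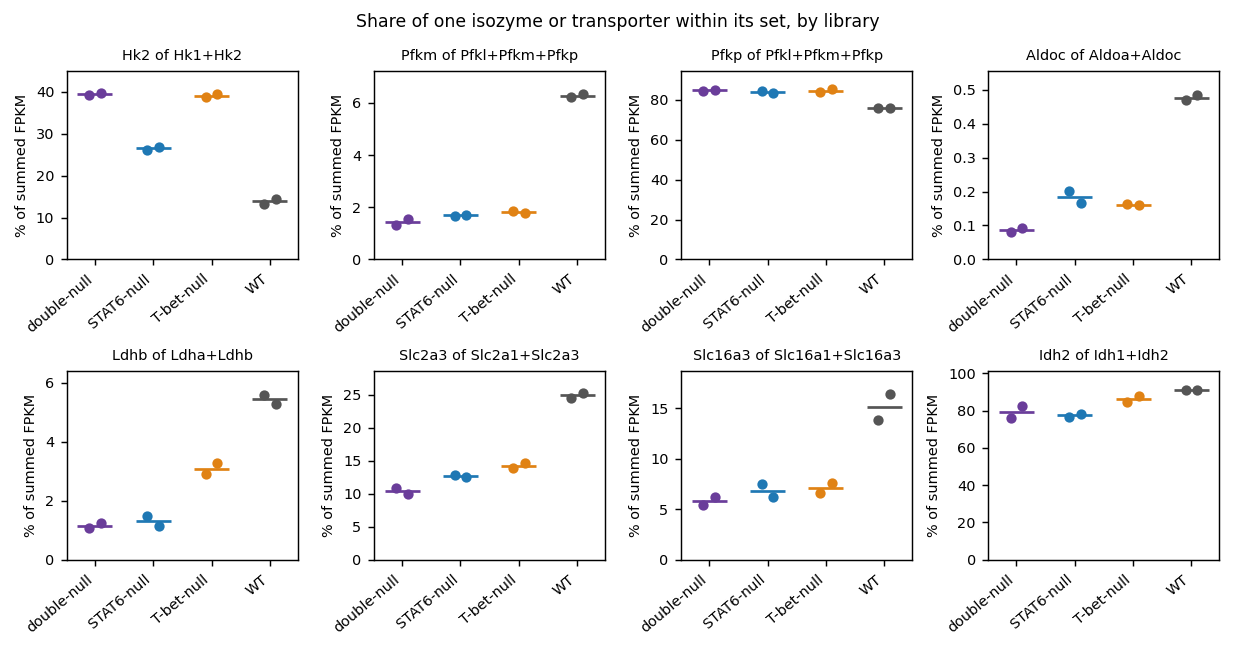
Share of 1 gene in the summed FPKM of its isozymes or transporters (percent, each axis starting at 0), with a point per library and a line at the mean of each genotype. In each of the 8 panels the 6 mutant libraries lie apart from the 2 WT libraries; the Hk2 share of STAT6-null libraries, 26.2 and 26.9%, is below that of the other mutants.

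Among the pentose phosphate genes, G6pdx, Pgls and Taldo1 fell in every mutant and Rpia rose. Of 6 members, 1 were higher and 3 lower in double-null, 1 higher and 4 lower in STAT6-null and 1 higher and 4 lower in T-bet-null cells against WT, with median changes of -0.20, -0.48 and -0.27. Among all genes tested 36.7%, 36.1% and 36.3% were lower in the same order. G6pdx, the entry enzyme that makes NADPH, stood at 11.6 and 13.4 FPKM in double-null, 11.3 and 10.5 in STAT6-null, 13.7 and 13.7 in T-bet-null and 16.7 and 17.5 in WT libraries. WT libraries were the highest, and G6pdx fell, with log2 changes of -0.43 ± 0.08 in double-null, -0.60 ± 0.08 in STAT6-null (adjusted p = 9.88e-05) and -0.30 ± 0.08 in T-bet-null cells. Pgls, the lactonase that follows, lay between 23.4 and 41.4 FPKM and fell in all mutants (-0.42, -0.62 and -0.50 in the same order). Without WT replicate 1 (adjusted p = 0.0862) or double-null replicate 1 (0.0797) its call in double-null cells was lost. Pgd, the next NADPH-making enzyme, was called in none of the 7 comparisons, at 13.8 and 16.9 FPKM in double-null, 12.9 and 13.1 in STAT6-null, 14.7 and 13.5 in T-bet-null and 15.4 and 13.1 in WT libraries. The non-oxidative enzymes differed: Taldo1, the transaldolase, stood at 29.7 and 35.8 FPKM in double-null, 26.0 and 25.3 in STAT6-null, 26.8 and 26.4 in T-bet-null and 52.8 and 45.3 in WT libraries, and fell, with log2 changes of -0.57, -0.90 and -0.85 in double-null, STAT6-null and T-bet-null cells. WT libraries were the highest. Double-null cells exceeded T-bet-null (0.28 ± 0.09) and STAT6-null cells (0.33 ± 0.09), calls that were lost under 11 (adjusted p up to 0.267) and 8 (up to 0.194) of 19 alternatives. Tkt, the transketolase, stood at 38.5 and 43.0 FPKM in double-null, 30.8 and 31.5 in STAT6-null, 34.2 and 33.8 in T-bet-null and 42.4 and 38.2 in WT libraries. It fell in STAT6-null (-0.36) and T-bet-null cells (-0.24), while the double-null value was 0.02 (95% interval -0.14 to 0.18). The T-bet-null call of Tkt was lost without WT replicate 1 (0.0964) or T-bet-null replicate 2 (0.0675). Rpia, the isomerase that forms ribose 5-phosphate, lay between 15.04 and 20.6 FPKM and rose in all mutants (0.38, 0.20 and 0.37). Its STAT6-null call was lost under 4 of 19 alternatives (up to 0.213).

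Citrate cycle genes went both ways, also among subunits of 1 complex. Of 12 members, 4 were higher and 5 lower in double-null, 2 higher and 6 lower in STAT6-null and 3 higher and 6 lower in T-bet-null cells, with medians of -0.09, -0.16 and -0.21. In all, 75%, 66.7% and 75% were called, near the 73%, 71% and 70.6% of all genes tested. Idh2, the NADP-dependent isocitrate dehydrogenase of mitochondria, had the largest change of the cycle. It stood at 4.12 and 5.31 FPKM in double-null, 3.93 and 3.78 in STAT6-null, 4.46 and 5.62 in T-bet-null and 12.5 and 11.1 in WT libraries, lower than WT in every mutant library. The log2 change was -1.17 ± 0.12 in double-null, -1.40 ± 0.12 in STAT6-null (adjusted p = 1.09e-05) and -1.09 ± 0.12 in T-bet-null cells. Its cytosolic counterpart Idh1 was near the level of 1 FPKM, at 1.29 and 1.11 FPKM in double-null, 1.19 and 1.06 in STAT6-null, 0.811 and 0.788 in T-bet-null and 1.20 and 1.05 in WT libraries, and its fall in T-bet-null cells (-0.24) was lost under 5 of the alternatives that tested it, with an adjusted p up to 0.227. Idh2 made up 76.1 and 82.7% of the pair in double-null, 76.7 and 78.1% in STAT6-null and 84.6 and 87.7% in T-bet-null libraries, against 91.3 and 91.3% in WT. Of the NAD-dependent isocitrate dehydrogenase, the catalytic subunit gene Idh3a rose (0.44, 0.31 and 0.37 in double-null, STAT6-null and T-bet-null cells), Idh3g fell (-0.40, -0.56 and -0.47) and Idh3b was not called in any comparison. Without WT replicate 1 the call of Idh3g in double-null cells was lost (adjusted p = 0.0658). Over the 8 libraries Idh3a lay between 13.4 and 19.9 FPKM, Idh3g between 25.5 and 40.8 FPKM and Idh3b between 28.6 and 34.1 FPKM. The 2-oxoglutarate dehydrogenase complex divided in the same way. Ogdh, its first enzyme, stood at 16.7 and 17.7 FPKM in double-null, 15.1 and 15.1 in STAT6-null, 18.8 and 18.4 in T-bet-null and 25.3 and 24.8 in WT libraries. It fell in all mutants (-0.52, -0.70 and -0.41), and Dlst, its second, between 41.05 and 57.5 FPKM, rose (0.42, 0.28 and 0.37).

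Cs, the citrate synthase that opens the cycle, stood at 30.8 and 33.3 FPKM in double-null, 26.8 and 27.8 in STAT6-null, 29.9 and 28.7 in T-bet-null and 38.1 and 35.3 in WT libraries. It fell, with log2 changes of -0.19 ± 0.06 in double-null, -0.41 ± 0.06 in STAT6-null and -0.31 ± 0.06 in T-bet-null cells. Its call in double-null cells was lost without the library WT 1 (adjusted p = 0.0603) or double-null replicate 1 (0.125) and when only these genotypes were fitted (0.0821). Mdh1, the cytosolic malate dehydrogenase, stood at 33.1 and 33.9 FPKM in double-null, 34.7 and 37.9 in STAT6-null, 35.1 and 35.6 in T-bet-null and 56.3 and 53.3 in WT libraries. Both WT libraries lay above all mutant libraries, and it fell in all mutants (-0.70, -0.58 and -0.62). The mitochondrial Mdh2, between 112 and 142 FPKM, was called in double-null cells alone against WT (0.19), a call lost under 5 of 19 alternatives (up to 0.191). Fh1, the fumarase, lay between 21.9 and 29.8 FPKM and rose in double-null (0.22, lost under 3 of 19 alternatives, up to 0.16) and T-bet-null cells (0.33). Suclg1, a subunit of succinyl-CoA ligase, lay between 17.7 and 23.8 FPKM and had a small fall in STAT6-null cells (-0.22, adjusted p = 0.045) that was lost under 11 of 19 alternatives (up to 0.349).

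**Figure D4:**
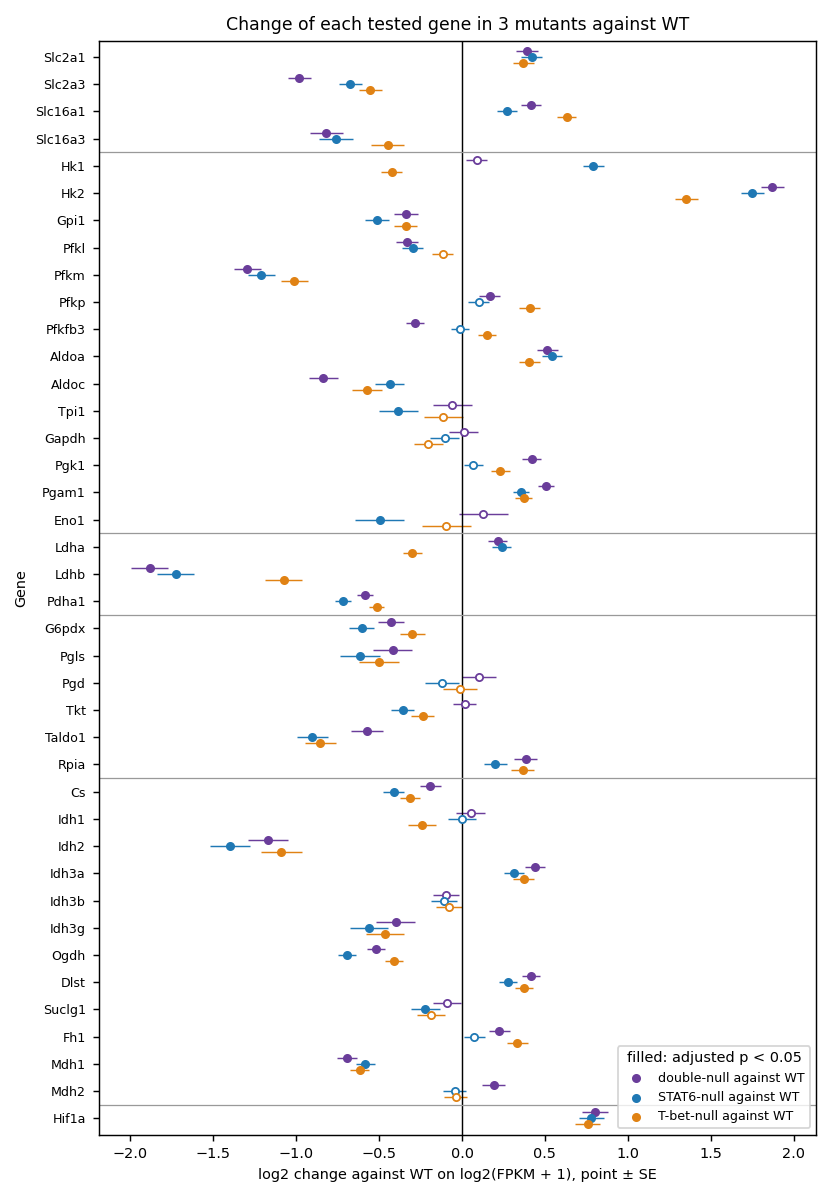
Change of each of the 40 tested members in double-null, STAT6-null and T-bet-null cells against WT, as log2 change on the log2(FPKM + 1) scale with SE bars; filled points passed an adjusted p of 0.05 and lines divide the pathways. Hk2 lies furthest to the right and Ldhb furthest to the left; the 3 mutants differ in direction for Hk1, Ldha and Pfkfb3 among the called values.

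Hif1a rose in every mutant, and no call separated the mutants from each other. It stood at 341 and 352 FPKM in double-null, 330.3 and 353 in STAT6-null, 332 and 339.5 in T-bet-null and 183 and 215 in WT libraries, above WT in every mutant library, with log2 changes of 0.80 ± 0.08 in double-null (adjusted p = 1.53e-05), 0.78 ± 0.08 in STAT6-null and 0.76 ± 0.08 in T-bet-null cells. Between mutants the differences were 0.02 for double-null against STAT6-null (95% interval -0.15 to 0.19) and 0.04 for double-null against T-bet-null cells (-0.13 to 0.22). The HIF list of partners, hydroxylases and known target genes did not move as a block. Of 17 tested, 3 were higher and 9 lower in double-null, 3 higher and 8 lower in STAT6-null and 2 higher and 7 lower in T-bet-null cells, with medians of -0.19, -0.22 and -0.09. As shares these were 17.6% and 52.9%, 17.6% and 47.1%, and 11.8% and 41.2%, against 36.3% and 36.7%, 34.9% and 36.1%, and 34.2% and 36.3% of all genes tested. Epas1, a gene of this list, passed the filter only through the WT libraries, where it was highest. Lower calls of Epas1 were thus favoured by the filter, as for Aldoc among the members. Egln3, a prolyl hydroxylase that marks HIF-1α for degradation and is itself induced by it, stood at 39.3 and 45.1 FPKM in double-null, 57.1 and 58.7 in STAT6-null, 16.2 and 15.9 in T-bet-null and 10.7 and 9.96 in WT libraries. It was highest in STAT6-null libraries and rose by 1.93 ± 0.07 in double-null, 2.38 ± 0.07 in STAT6-null (adjusted p = 6.54e-08) and 0.59 ± 0.07 in T-bet-null cells. Ero1l, an oxidase of protein folding that hypoxia induces, rose by 0.84, 0.40 and 0.98 in the same order. The lowest changes of the list, named after their values were seen, were those of P4ha1, a collagen prolyl hydroxylase, in double-null cells (-1.09), and of Bnip3l, a mitophagy receptor, in STAT6-null (-0.92) and T-bet-null cells (-0.78).

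Other genes of the same pathways, from a list of 60 of which 42 were in the table and 37 were tested, went in both directions as well. Against WT 13 were higher and 16 lower in double-null, 10 higher and 19 lower in STAT6-null and 10 higher and 20 lower in T-bet-null cells, with medians of -0.11, -0.20 and -0.19. As shares these were 35.1% and 43.2%, 27% and 51.4%, and 27% and 54.1%. Those of all genes tested were 36.3% and 36.7%, 34.9% and 36.1%, and 34.2% and 36.3%. Pfkfb1, Pfkfb2, Pdk2 and H6pd would not have passed the filter without the WT libraries, where they were highest, so lower calls of these genes were favoured. The largest falls among enolases were those of the minor isozymes. Eno3, the enolase named for muscle, stood at 2.61 and 2.70 FPKM in double-null, 3.86 and 3.03 in STAT6-null, 6.46 and 6.55 in T-bet-null and 15.6 and 14.2 in WT libraries, a change of -2.12 in double-null, -1.84 in STAT6-null and -1.08 in T-bet-null cells. Eno2, the enolase named for neurons, stood at 1.46 and 1.39 FPKM in double-null, 2.35 and 2.12 in STAT6-null, 3.27 and 3.32 in T-bet-null and 8.10 and 6.19 in WT libraries (-1.74, -1.32 and -0.91). Both were highest in WT and lowest in double-null libraries, with no overlap between genotypes for Eno2 or Eno3. Ldhd, a D-lactate dehydrogenase, fell in double-null (-1.75), STAT6-null (-2.03) and T-bet-null cells (-1.26). Suclg2, the GTP-forming subunit of succinyl-CoA ligase, also fell (-1.14, -1.22 and -0.82 in the same order). Pdp1, a phosphatase that activates pyruvate dehydrogenase, rose by 1.00, 0.74 and 0.94.

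The log2 changes between mutants do not use the WT libraries, and fewer members were called in these comparisons. WT libraries still enter the calls, through the filter and the estimate of spread shared by all genotypes. STAT6 loss in cells without T-bet, double-null against T-bet-null, gave 8 higher and 9 lower of 40, against 16.4% higher and 16.2% lower of all genes tested. T-bet loss in cells without STAT6, double-null against STAT6-null, gave 7 higher and 4 lower, against 11.3% and 8.63%. STAT6-null against T-bet-null cells gave 3 higher and 8 lower, against 12.3% and 14.9%. Scaling every library to the same sum changed the balance of all calls: the higher share of calls was 24.6% with it and 50.4% without it for double-null against T-bet-null, 43.7% and 56.6% for double-null against STAT6-null, and 29.6% and 45.1% for STAT6-null against T-bet-null cells. The calls kept in each of 19 alternatives were those of Hk1, Hk2, Ldha (higher), Ldhb, Pfkfb3 and Slc2a3 (lower) for double-null against T-bet-null cells, and those of Hk1 (lower) and Pgk1 (higher) for double-null against STAT6-null cells. For STAT6-null against T-bet-null cells they were Hk1, Hk2 and Ldha (higher) and Ldhb, Ogdh and Slc16a1 (lower). The count of 11 members for double-null against STAT6-null cells was 17 without double-null replicate 1, 5 without double-null replicate 2, 2 and 6 without STAT6-null replicate 1 and 2, and 7 without either T-bet-null library. That of 17 for double-null against T-bet-null cells was 8 and 6 without T-bet-null replicate 1 and 2, and 8 without double-null replicate 2. That of 11 for STAT6-null against T-bet-null cells was 7 and 6 without T-bet-null replicate 1 and 2, and 6 without STAT6-null replicate 2. In the double-null pair, 36 of 40 members were higher in replicate 2 than in replicate 1, as were 6400 of 10281 genes. The WT pair differed the other way, with 10 of 40 members and 4134 of 10281 genes higher in replicate 2. In the STAT6-null and T-bet-null pairs 17 of 40 members each were higher in replicate 2.

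The same loss can be read on 2 backgrounds from log2 changes that share no library, although the filter and the estimate of spread are shared. STAT6 loss moved 9 members the same way with T-bet present and without it. Hk1, Hk2 and Ldha were higher in both, and Slc2a3, Slc16a3, Pfkl, Pfkm, Aldoc and Ldhb were lower in both. That is 22.5% of the 40, against 19.4% of all genes tested. Aldoc is counted here although it passed the filter only through WT, which favoured its lower call with T-bet present. In double-null against T-bet-null cells, the calls of Pfkl and Aldoc were lost under 7 alternatives each, that of Pfkm under 4 and that of Slc16a3 under 3. Pfkl was tested in all 19 alternatives, but Aldoc, Pfkm and Slc16a3 were too low for some of them. In 3 members STAT6 loss went opposite ways (7.50%, against 5.22% of all genes): Slc16a1 (0.27 with T-bet present and -0.21 without it), Tkt (-0.36 and 0.25) and Taldo1 (-0.90 and 0.28). T-bet loss moved 4 members the same way on both backgrounds (10%, against 11% of all genes): Hk1, Slc2a3 and Aldoc were lower and Pgk1 was higher. For Aldoc the filter again favoured the lower call against WT. In double-null against STAT6-null cells, the call of Slc2a3 was lost under 3 of 19 alternatives and that of Aldoc under 2 of those that tested it. T-bet loss went opposite ways in 5 members (12.5%, against 4.82%): Pfkfb3, Tkt, Taldo1, Cs and Ogdh. In the cells that lacked the other factor, each of these opposite changes lost its call in at least 1 alternative. The interaction term, which tests the difference between the effects on both backgrounds, was called upward in 18 and downward in 11 of 40 members, against 29.6% and 27.7% of all genes tested; it includes the WT libraries.

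**Figure D5:**
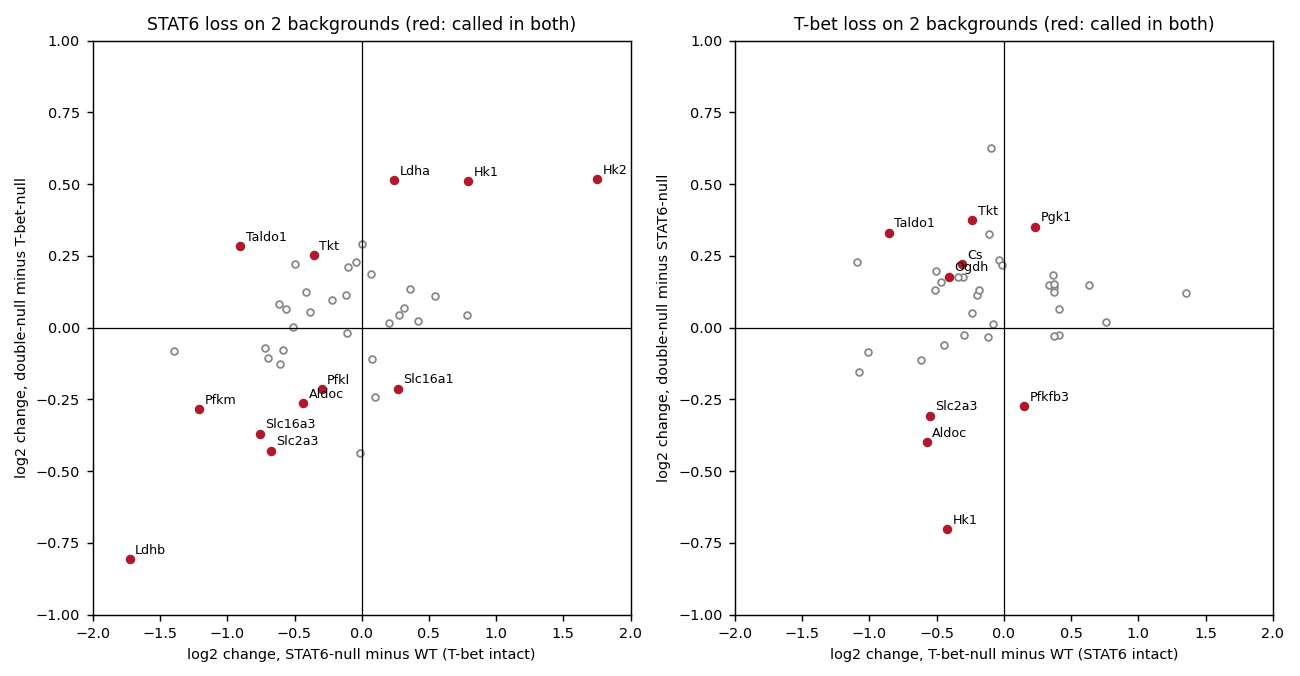
Log2 change of the 40 tested members after STAT6 loss (left) and T-bet loss (right), with the other factor present on the horizontal axis and lost on the vertical axis; the scales of the 2 axes differ. Red points were called in both comparisons: Ldhb and Hk2 lie at the ends for STAT6 loss, and Hk1 at the bottom left for T-bet loss.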

How the data were processed

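RNA-seq of 8 libraries was used, each placed by its own title. The deposited values are FPKM, made by the authors with Cufflinks on mouse build mm10 per the submitters' processing notes, with RefSeq genes per the table's name. Nothing on aligner, versions or strand is given in the sources used here. Each of the 11906 lines exceeded 0.1 FPKM in all libraries. For 43 symbols on several lines the most abundant line was kept (65 set aside), and 17 lines named by a date stayed in the totals. Depth is known only roughly: low values in whole steps gave relative depths of 0.856 to 1.04, from 9 to 29 of 500 low genes in each library compared with WT 1, and about 20800000 fragments in WT 1. Few genes had such steps and counts were not recovered.

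Genes with at least 1 FPKM in at least 2 libraries were tested on log2(FPKM + 1), a scale that understates changes of low genes. The tool was limma 3.58.1 (R 4.3.3), two-sided, with an intensity trend, 4 residual degrees of freedom, 1 mean per genotype and Benjamini-Hochberg adjustment within each of 7 comparisons. The procedure was run on simulated data with independent noise and a few genes changed in double-null cells alone. That setting is simpler than these data, so it gives no error rate for them. Shares of isozymes used SciPy 1.17.1. No label names separate animals, so p-values reflect the spread of these libraries, which may be technical only. All members present are named. Values in every library are given at least for those called and changed at least 2-fold in any comparison and for entry enzymes and isozyme sets; of other pathway and HIF genes, the 5 with the largest called change in each comparison with WT are named. Members and lists were chosen with earlier results of these data known. Alternatives changed the pseudocount, filter, scaling, variance trend, samples, lines per symbol, replicate block and single libraries.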

Additional observations from a re-analysis of the deposited data

Results flagged for a closer look

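STAT6 loss had a different effect without T-bet than with it, by the interaction of both losses, in 29 of 40 tested members, 18 upward and 11 downward (limma, adjusted p under 0.05), against 29.6% and 27.7% of all genes tested. The median over the members was 0.27, beside 0.01 over all genes tested. The WT libraries enter this term, and a gene that shifts alike in all 3 mutants has a term of the opposite sign by construction.

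For Hk2, STAT6 loss gave 0.52 in T-bet-null cells and 1.75 in T-bet-sufficient cells, a difference of -1.23 ± 0.10 (adjusted p = 2.78e-05). For Idh2 the 2 effects were -0.08 and -1.40, a difference of 1.32 ± 0.17 (adjusted p = 0.000308). For Taldo1 they were 0.28 and -0.90, a difference of 1.19 ± 0.13.

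The upward differences, on the log2 scale, were those of Idh2 (1.32), Taldo1 (1.19), Pfkm (0.93), Ldhb (0.92), Eno1 (0.72), Pgls (0.70), Pdha1 (0.65), Idh3g (0.63), Tkt (0.61), Ogdh (0.59), Cs (0.54), Gpi1 (0.52), Mdh1 (0.51), G6pdx (0.48), Tpi1 (0.44), Slc16a3 (0.39), Ldha (0.28) and Mdh2 (0.27). The downward differences were those of Hk2 (-1.23), Hif1a (-0.74), Slc16a1 (-0.48), Aldoa (-0.43), Pfkfb3 (-0.42), Slc2a1 (-0.40), Pfkp (-0.34), Hk1 (-0.28), Idh3a (-0.25), Dlst (-0.23) and Pgam1 (-0.22). Those of Dlst, Eno1, Hk1, Idh3a, Ldha, Mdh2, Pgam1, Slc16a3 and Tpi1 lost their call in 1 or more of the 18 alternatives.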

How the results depend on the processing

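No called member changed direction under any of the 19 alternatives (18 for the interaction). The calls of members kept in every alternative that tested the gene were 25 of 31 in double-null, 27 of 31 in STAT6-null and 29 of 32 in T-bet-null cells against WT, 2 of 11 in double-null against STAT6-null, 6 of 17 in double-null against T-bet-null, 6 of 11 in STAT6-null against T-bet-null cells and 20 of 29 in the interaction. Aldoc, Pfkm, Slc16a3 and Idh1 were not tested with a filter of 5 FPKM, nor Aldoc without either WT library. Calls of these genes counted as kept were thus not tried in every alternative. Against WT the counts of called members and genes stayed within 1.5 times of those reported. The 11 members called in double-null against STAT6-null cells became 7 without the intensity trend, 6 with only the genotypes compared and 7 with the replicate block. The 17 in double-null against T-bet-null cells became 10 with only the genotypes compared, and the 11 in STAT6-null against T-bet-null cells became 21 with scaling to equal sums. Leaving out 1 library gave 2 to 17 members and 840 to 2074 genes for double-null against STAT6-null (2044 with all), 6 to 16 members and 1631 to 3308 genes for double-null against T-bet-null (3351 with all), and 6 to 13 members and 1443 to 3084 genes for STAT6-null against T-bet-null cells (2799 with all); fewer libraries also leave fewer degrees of freedom. Replicate numbers pair nothing by the labels, and deviations of same-numbered libraries had correlations of -0.0899 to 0.0907; with the replicate block 31, 30 and 32 members were called in double-null, STAT6-null and T-bet-null cells against WT, 15 in double-null against T-bet-null, 10 in STAT6-null against T-bet-null and 25 in the interaction. For the interaction the median of all genes was -0.10 with scaling to equal sums and 0.01 without it, and the higher share of calls was 40.4% with it and 51.7% without it. Isozyme shares cannot move with a scaling of whole libraries. Under quantile normalization, with the lines of a symbol summed and without each library they kept their side of WT, with exact permutation p-values of 0.0714 to 0.286. Pdk1, Aldoc, Pfkm and Idh1 have libraries under 1 FPKM, where few fragments limit the precision.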
